A study of Mus musculus with 36 samples.

Results

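The report covers 6 little-studied mouse noncoding RNA genes: Lrrc75aos2, 2410006H16Rik, 1110038B12Rik, 1810032O08Rik, 9330159M07Rik and Rab26os. They were taken by symbol from a count table of 54842 genes, and all 6 passed the filter on low counts, as did 18193 genes in all. They were chosen by symbol, with measured values of these data in view, among them the fold changes between lit and dark cells at 0 h. For that reason the members' values at 0 h, and the calls made there over all genes, are given as a description and support nothing. The later times and the comparisons of dark cells use other libraries and are tested, but it is not recorded how 1110038B12Rik, 1810032O08Rik, 9330159M07Rik and 2410006H16Rik were picked, so these tests cannot be said to be independent of the choice. RNA was sequenced from mouse embryonic stem cells grown in serum-free medium with a MEK inhibitor, a GSK3β inhibitor and LIF. The cells were wild type (WT) or transfected with LiTEC, the light-controlled system the study set out to test for effects on transcription; the labels do not describe its parts or say whether the LiTEC line is a clone. Cells of both genotypes had received doxycycline (2 µg/ml for 2 days). They were then exposed to blue light for 30 min (lit) or not exposed (dark), and RNA was extracted 0, 1 or 4 h afterwards, which gives 12 groups of 3 libraries and 36 libraries in all.

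Small nucleolar RNAs (snoRNAs) are short RNAs that guide chemical modification of ribosomal RNA, and in mammals most are cut out of the introns of a longer host transcript. In several host genes the spliced RNA codes for no conserved protein, so the introns carry the known product and the exons are often short-lived. Many hosts start at a pyrimidine tract, the feature of the 5′ terminal oligopyrimidine (TOP) mRNAs that code for ribosomal proteins, and several host RNAs are degraded by nonsense-mediated decay while they are being translated. An antisense RNA is one transcribed from the strand opposite a named gene, and is usually named after it with the suffix "os".

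In the GRCm38 annotation, 5 of the 6 genes hold snoRNA genes on their own strand and are called hosts here. 2410006H16Rik (chr11:62602877-62604807, plus strand) has 5 exons with 462 bases in all, and its introns hold Snord49b, Snord49a and Snord65. Lrrc75aos2 (chr11:62605766-62607748, plus strand) begins 958 bases further on, has 1227 exon bases and lies opposite Lrrc75a, with 86 of those bases (7.01%) facing an exon of that protein-coding gene. 1110038B12Rik (chr17:34950238-34952471, minus strand) holds Snord52 and the snoRNA gene Gm25744. 1810032O08Rik (chr11:116671660-116675799, plus strand), which RefSeq lists as Snhg16, holds Snord1a, Snord1b and Snord1c, and 497 of its exon bases face St6galnac2. 9330159M07Rik (chr9:88840236-88858870, minus strand) holds the snoRNA gene Gm26135, and Rab26os (chr17:24528248-24528744, plus strand) holds Snord60 and lies opposite Rab26 without facing any of its exons.

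The snoRNA sequences below show what the hosts carry, 1 for each host other than 2410006H16Rik, and all 3 of 2410006H16Rik because they were counted in these libraries. They are GENCODE transcripts on GRCm38, and the capitals mark the box C letters TGATGA and the box D letters CTGA that bind the core proteins of this snoRNA class. Box D was found in 10 of the 10 snoRNAs of the 5 hosts and both boxes in 7, against 32.2% and 20.3% of all 1507 annotated snoRNA transcripts, which include other snoRNA classes. Snord49a and Snord49b share a run of 13 bases, aggaagtgccgtc.
Snord49b (chr11:62603079-62603150, plus strand): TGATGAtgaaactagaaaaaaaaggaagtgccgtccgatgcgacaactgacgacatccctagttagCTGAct
Snord49a (chr11:62603450-62603521, plus strand): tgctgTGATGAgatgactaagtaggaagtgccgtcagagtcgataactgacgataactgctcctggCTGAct
Snord65 (chr11:62604515-62604586, plus strand): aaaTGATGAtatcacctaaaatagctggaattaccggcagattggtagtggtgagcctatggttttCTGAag
Snord52 (chr17:34950952-34951017, minus strand): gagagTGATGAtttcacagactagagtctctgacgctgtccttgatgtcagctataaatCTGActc
Snord1a (chr11:116674598-116674671, plus strand): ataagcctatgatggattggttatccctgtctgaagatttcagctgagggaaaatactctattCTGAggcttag
Gm26135 (chr9:88857693-88857764, minus strand): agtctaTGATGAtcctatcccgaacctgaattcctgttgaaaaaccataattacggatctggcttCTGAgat
Snord60 (chr17:24528476-24528553, plus strand): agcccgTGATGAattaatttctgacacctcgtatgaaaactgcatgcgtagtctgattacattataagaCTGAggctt

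The start regions are shown as a description only, and whether they bear on the changes after light was not tested. No promoter was matched for Lrrc75aos2. For 5 of the 6 genes a RefSeq promoter on GRCm38.p6 was matched by symbol or gene identifier, and the lines below give the 100 bases centred on the annotated start, with the longest run of C and T that reaches into the 20 bases on either side of the start in capitals. A run of at least 7 was found in 4 of the 5 (9 in 2410006H16Rik, 8 in 1810032O08Rik, 8 in Rab26os and 7 in 1110038B12Rik), against 30.2% of 27025 RefSeq promoters. The run was 5 at the start shown for 9330159M07Rik and 7 at its other start.
2410006H16Rik: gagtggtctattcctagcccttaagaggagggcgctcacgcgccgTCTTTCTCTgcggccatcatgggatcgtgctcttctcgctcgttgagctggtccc
1110038B12Rik: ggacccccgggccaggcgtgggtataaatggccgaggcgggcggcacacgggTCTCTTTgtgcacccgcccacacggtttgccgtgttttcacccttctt
1810032O08Rik: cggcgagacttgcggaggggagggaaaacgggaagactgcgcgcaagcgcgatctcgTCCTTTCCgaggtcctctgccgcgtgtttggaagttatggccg
9330159M07Rik: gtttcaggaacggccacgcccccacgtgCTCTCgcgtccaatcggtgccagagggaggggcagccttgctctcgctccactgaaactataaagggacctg
Rab26os: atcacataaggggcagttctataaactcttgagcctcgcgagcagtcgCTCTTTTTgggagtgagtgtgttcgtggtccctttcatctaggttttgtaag
In the whole 300-base promoter, from 250 bases before to 50 after the start and on both strands, the letters TCGCGA were in 3 of the 5 (2410006H16Rik, 1810032O08Rik and Rab26os) against 2.58% of all promoters. CACGTG was in 1 of the 5 (9330159M07Rik) against 7.24%, TATAAA in 3 against 14.2%, CCAAT in 3 against 37.9%, and GAANNTTC, the letters of the heat-shock element, in 0 against 7.95%. Matches of different motifs overlapped 0 times, and they describe letters only.

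The 36 libraries held 11132970 to 21842256 counts (median 16663713.5), and a level is stated in CPM: its counts divided by the library size, times 1000000. Embryonic stem cell markers were high in every library, with the 9 listed markers summing to between 2814 and 3595 CPM. The 8 fibroblast and feeder markers summed to 2.65 to 10.5 CPM, with Lum at 0 in 34 libraries and Dcn at 0 in 33, and the 8 markers of differentiated cells summed to 9.30 to 28.6 CPM. The locus Gm26917, annotated over ribosomal RNA sequence, took 8.12% to 26.1% of the counts (median 9.87%), highest in the dark WT library at 4 h numbered 3.

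Scaled to exon length, 2410006H16Rik was the most abundant of the 6 RNAs, with 111 ± 12.5 CPM per kb (SD, n = 36). 1110038B12Rik followed with 66.8 ± 10.1 CPM per kb, then Rab26os with 16.03 ± 4.18, 1810032O08Rik with 10.5 ± 2.56, Lrrc75aos2 with 7.32 ± 2.55 and 9330159M07Rik with 1.44 ± 0.324. Unscaled, the mean levels ran from 7.68 CPM for 9330159M07Rik to 121 CPM for 1110038B12Rik, with 2410006H16Rik at 51.4 CPM. The scaled order depends on the annotation, since the length counts each base that is in an exon of any transcript. It was 462 bases for 2410006H16Rik and 1811 for 1110038B12Rik, where 5 of 8 transcripts are retained-intron models.

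**Figure D1:**
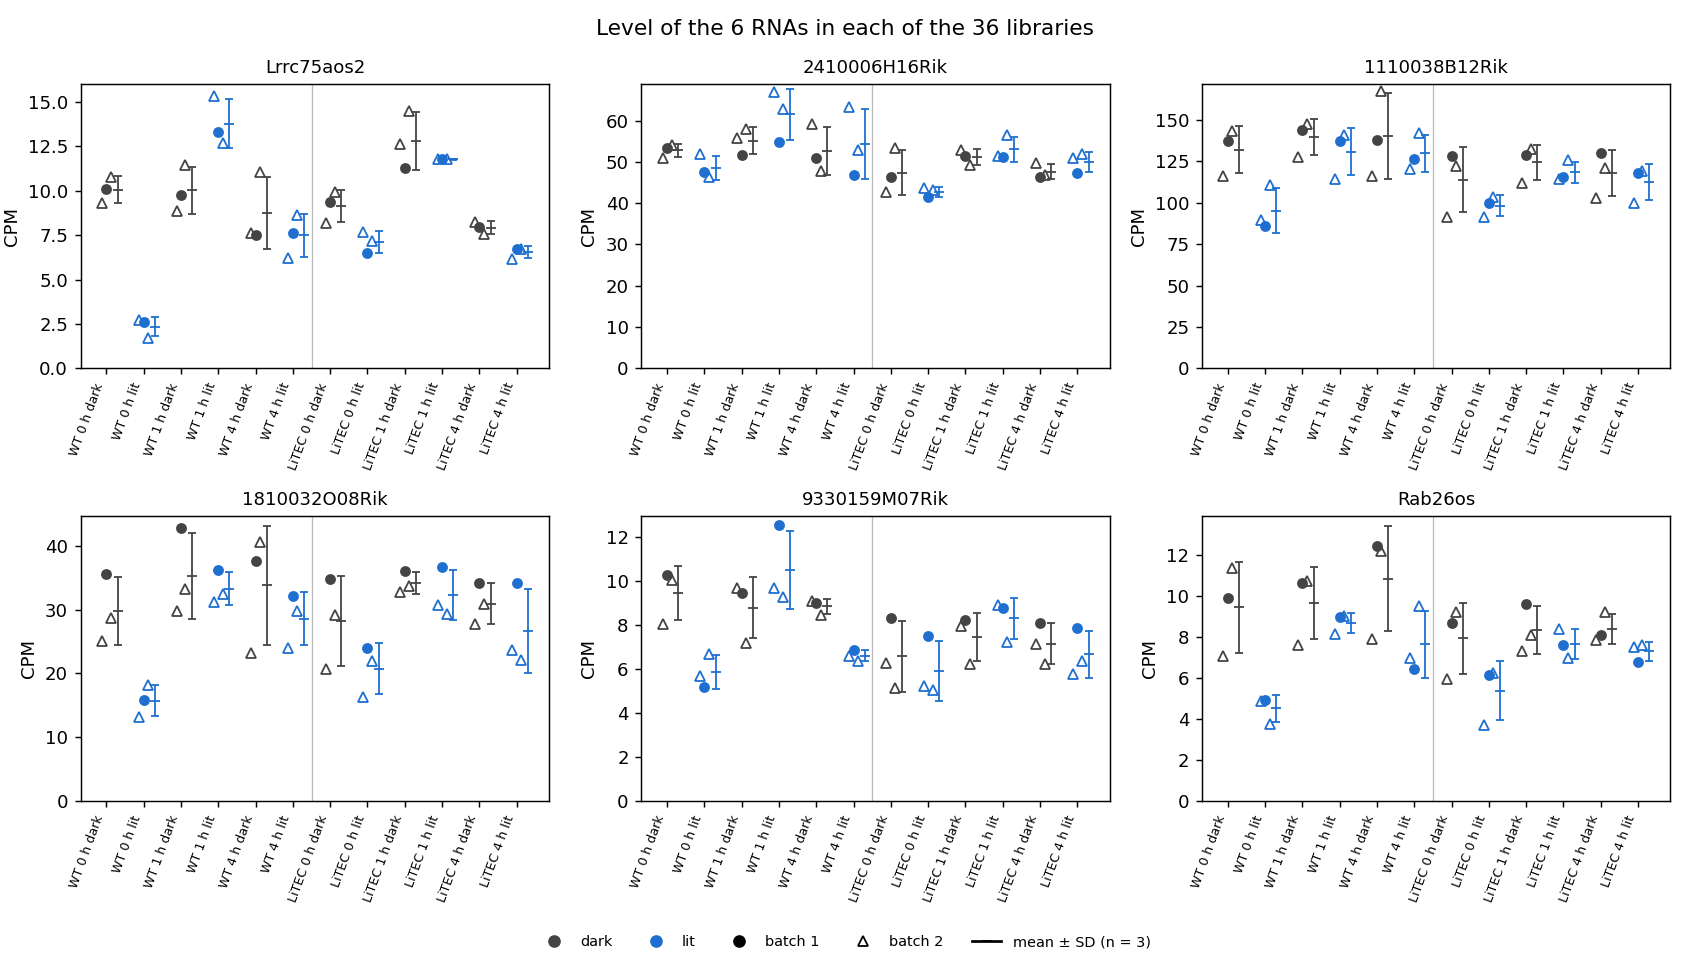
Level of each RNA (vertical axis, CPM, from 0) in the 36 libraries, by genotype, time and light (horizontal axis); filled circles are batch 1 and open triangles batch 2, and the bars beside them give the mean ± SD of 3 libraries. Lit WT cells at 0 h lie between 1.73 and 2.74 CPM for Lrrc75aos2, below every other library, while the groups of 2410006H16Rik lie close together.

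Immediately after light, Lrrc75aos2 was about 4-fold lower in lit than in dark WT cells, and 4 of the other 5 RNAs were lower by 27.8% to 51.6%. The exception was 2410006H16Rik, the host nearest to Lrrc75aos2. In LiTEC cells the fold changes of all 6 were below 0, by 9.42% to 30.9%, and 0 of them were called. At 1 h the lit WT libraries of Lrrc75aos2 lay above the dark ones, a change that did not pass the test, and those of the other members overlapped. Throughout, the share of all genes whose compared groups do not overlap was not counted, so such separation is given as a description.

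Lrrc75aos2 was at 10.1, 9.30 and 10.8 CPM in the dark WT libraries at 0 h and at 2.59, 2.74 and 1.73 CPM in the lit ones (173 to 201 counts against 24 to 49). Every lit library was thus below every dark one, and the log2 fold change was −2.07 ± 0.17 (SE), or 76.2% lower. In LiTEC cells the dark libraries were at 9.36, 8.18 and 9.91 CPM and the lit ones at 6.48, 7.68 and 7.19 CPM. These groups did not overlap either, but the fold change was smaller, −0.37 ± 0.15. Within batches the WT change on log2(CPM + 0.5) was −1.78 in batch 1 and −1.97 in batch 2, and the LiTEC change −0.50 and −0.26. In bulk RNA, fewer cells with a transcript and less of it in each cell cannot be told apart.

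Rab26os was at 9.88, 7.04 and 11.4 CPM in dark WT cells at 0 h and at 4.92, 4.87 and 3.74 CPM in lit ones, a log2 fold change of −1.05 ± 0.20 (51.6% lower). Here, too, the lit libraries lay below all the dark ones. The LiTEC groups overlapped, with 8.65, 5.95 and 9.18 CPM in the dark and 6.14, 3.71 and 6.24 CPM after light, a change of −0.53 ± 0.21. Rab26, the protein-coding gene on the other strand, which codes for a small GTPase of vesicle traffic, was low throughout and changed by −0.14 ± 0.25 in WT and 0.22 ± 0.27 in LiTEC cells at 0 h.

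1810032O08Rik was at 35.5, 25.1 and 28.6 CPM in dark and at 15.8, 13.2 and 18.1 CPM in lit WT cells at 0 h, which is −0.92 ± 0.15 on the log2 scale or 47.0% lower. In LiTEC cells it was at 34.8, 20.7 and 29.1 CPM in the dark and 24.0, 16.3 and 22 CPM after light, a change of −0.43 ± 0.15 with overlapping groups. Batch 1 lay above batch 2 in most groups of this RNA. Within batches its WT change was −1.14 and −0.77.

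9330159M07Rik lay among them: 10.3, 8.05 and 10.05 CPM in dark and 5.18, 5.68 and 6.69 CPM in lit WT cells at 0 h gave −0.69 ± 0.15, with no overlap. Its LiTEC libraries overlapped at 8.33, 6.26 and 5.15 CPM in the dark and 7.49, 5.24 and 5.04 CPM after light (−0.14 ± 0.16). 1110038B12Rik, the most highly counted member, was at 137, 116 and 143 CPM in dark and 85.8, 89.3 and 111 CPM in lit WT cells, a change of −0.47 ± 0.12 (27.8% lower). In LiTEC cells it was at 128, 91.4 and 122 CPM in the dark and 99.5, 91.3 and 104 CPM after light (−0.21 ± 0.12).

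2410006H16Rik had the smallest change of the members in WT. It was at 53.4, 51.0 and 54.0 CPM in dark and 47.6, 51.8 and 46.3 CPM in lit WT cells at 0 h, groups that overlap, with a log2 fold change of −0.12 ± 0.08. In LiTEC cells the change was −0.15 ± 0.08, from 46.3, 42.7 and 53.3 CPM to 41.4, 43.8 and 43.2 CPM.

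By edgeR's quasi-likelihood test at a Benjamini-Hochberg adjusted p below 0.05, 5 of the 6 members were called lower in WT at 0 h, beside 1.2 percent of the genes tested; this contrast served to choose members, so nothing is read from the count. It was 3 without lit WT replicate 1 and 3 without dark WT replicate 3 at 0 h, when 1110038B12Rik and 9330159M07Rik were not called, and 1 (Lrrc75aos2) in batch 2 alone. In LiTEC cells at 0 h, 0 of 6 were called by edgeR or DESeq2, beside 0.533 percent of genes called lower by edgeR. Below an unadjusted edgeR p of 0.05 were 3 of 6 members there, and 1846 of the 18193 genes tested. The median log2 fold change of the members was −0.80 in WT and −0.29 in LiTEC cells, beside −0.01 and 0.00 over all genes tested. The difference between genotypes (LiTEC light effect minus WT light effect) was 1.70 ± 0.23 for Lrrc75aos2, the only member called in it, beside 0.022 percent of genes. It was 0.55 ± 0.22 for 9330159M07Rik, 0.51 ± 0.29 for Rab26os, 0.49 ± 0.21 for 1810032O08Rik, 0.26 ± 0.17 for 1110038B12Rik and −0.03 ± 0.12 for 2410006H16Rik.

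The pluripotency markers also moved in WT at 0 h: their sum was 2820 to 3020 CPM in lit and 3156 to 3556 CPM in dark WT cells, and 2814 to 2986 against 2851 to 3057 CPM in LiTEC cells. Of the 9 markers, Sox2 and Tdgf1 were called lower in WT by edgeR, beside 1.2 percent of all genes. DESeq2 called 4 of the 9. Below an unadjusted edgeR p of 0.05 were 6 of the 9, and 2491 of the 18193 genes tested. Whether this bears on the members was not tested.

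**Figure D2:**
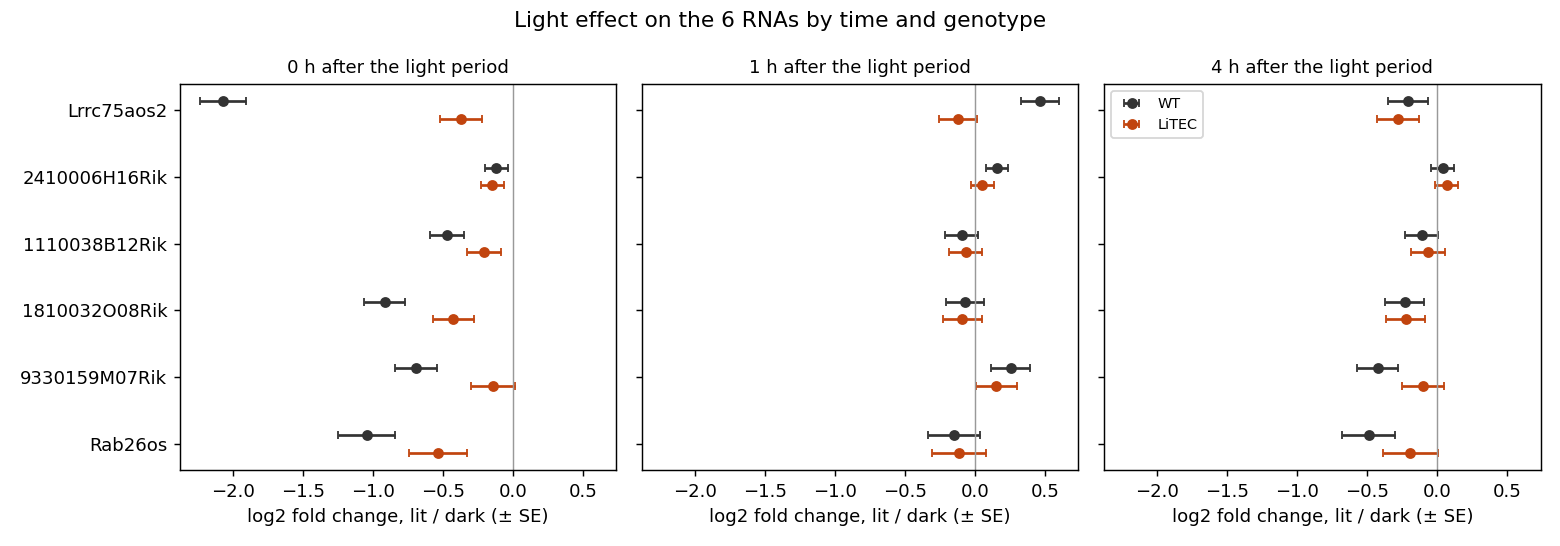
Light effect on each RNA as log2 fold change of lit over dark cells (horizontal axis, bars ± SE from the model of all 36 libraries) at 0, 1 and 4 h, in WT (dark grey) and LiTEC cells (red-brown). At 0 h Lrrc75aos2 lies at −2.07 in WT and −0.37 in LiTEC cells; at 1 and 4 h no member was called.

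The snoRNA rows in the introns of 2410006H16Rik had WT fold changes nearer to that of Lrrc75aos2 than to that of the host's own exons; these differences between genes were not tested. Snord49a was at 9.34, 7.36 and 10.9 CPM in dark and 3.33, 3.12 and 3.02 CPM in lit WT cells at 0 h (−1.53 ± 0.22), without overlap. Snord49b was at 3.89, 5.32 and 4.99 CPM in dark and 1.00, 1.93 and 1.15 CPM in lit WT cells (−1.80 ± 0.27), again without overlap. Snord65 was counted 29, 9 and 22 times in the dark WT libraries and 4, 3 and 3 times in the lit ones. In LiTEC cells Snord49a changed by −0.63 ± 0.21 and Snord49b by −0.24 ± 0.24, and Snord65 was counted 19, 5 and 20 times in the dark and 17, 7 and 16 times after light.

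A mature snoRNA has no poly(A) tail, the libraries were made with a kit for mRNA, and a read from unspliced host RNA over the same stretch is counted in the same row; which RNA gave these counts was not tested. Lrrc75a, which faces Lrrc75aos2, changed by 0.22 ± 0.26 in WT and 0.04 ± 0.21 in LiTEC cells at 0 h. The lit and dark WT libraries of Lrrc75a and of 2410006H16Rik overlapped at 0 h. The share of all genes with such overlap was not counted.

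**Figure D3:**
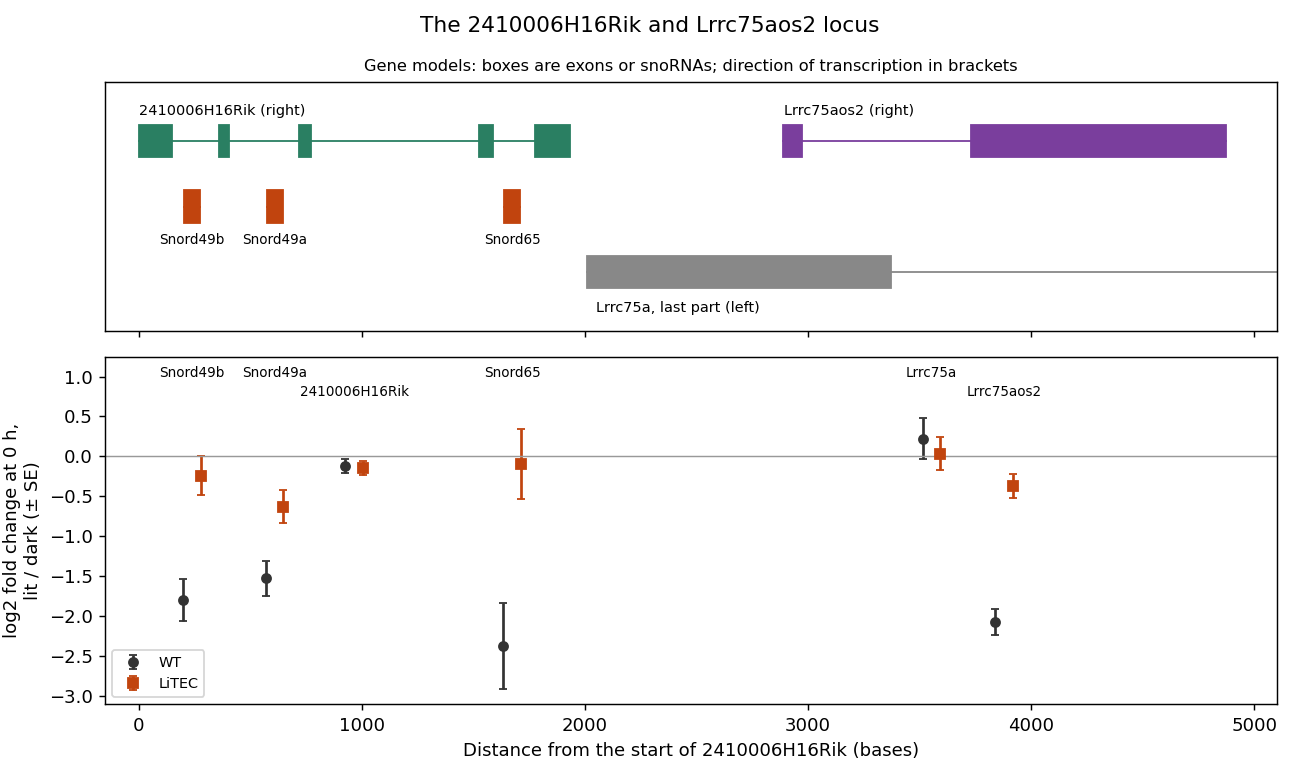
Top, gene models of the 2410006H16Rik and Lrrc75aos2 locus by distance in bases from the start of 2410006H16Rik, with the last part of Lrrc75a on the other strand. Bottom, log2 fold change of lit over dark cells at 0 h (± SE) for each gene in WT (circles) and LiTEC cells (squares); the exons of 2410006H16Rik lie near 0 while Snord49b (−1.80), Snord49a (−1.53) and Lrrc75aos2 (−2.07) are lower in WT, and Snord65 rests on 3 to 4 counts in each lit WT library.

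The snoRNAs of the other 4 hosts could not be followed. Snord52, Gm25744, Snord1a, Snord1b, Snord1c, Gm26135 and Snord60 had 0 counts in all 36 libraries, and each lies wholly inside an annotated exon of its host, Snord52 and Gm25744 in exons of retained-intron transcripts. Across the table, 157 of 157 snoRNA genes lying wholly inside a same-strand exon of another gene had 0 counts, against 245 of the 473 that lie in a same-strand gene but outside its exons. By default featureCounts leaves out a read that fits 2 genes; the setting used is not given, and these zeros set no limit on the snoRNA. By the same measure the counting kept the strands apart: of noncoding genes with every exon base facing exons on the opposite strand 140 of 181 had counts, and of those sharing every exon base with a gene on the same strand 6 of 58. Lrrc75aos2 and Rab26os are therefore reported apart from Lrrc75a and Rab26.

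At 1 h after light 0 members were called in either genotype by edgeR or DESeq2. Over all genes edgeR called 0.286 percent in WT and 0.115 percent in LiTEC cells. Below an unadjusted edgeR p of 0.05 were 1 of 6 members in WT and 0 of 6 in LiTEC cells. Of the 18193 genes tested, 1286 in WT and 1138 in LiTEC cells lay below it. Lrrc75aos2 was at 13.3, 15.3 and 12.7 CPM in lit and 9.75, 8.87 and 11.4 CPM in dark WT cells. Every lit library was above every dark one, the reverse of 0 h, with a log2 fold change of 0.46 ± 0.14 that did not pass the test (edgeR adjusted p = 0.206, unadjusted 0.00182; the adjusted p ranged from 0.0751 to 0.98 over the alternatives). In LiTEC cells it was at 11.8, 11.8 and 11.8 CPM in lit and 11.3, 12.7 and 14.5 CPM in dark cells (−0.12 ± 0.13). The difference between genotypes was −0.58 ± 0.19 for Lrrc75aos2 and did not pass either (edgeR adjusted p = 1, unadjusted 0.00458), in a comparison with 0 genes called by edgeR, 0 by DESeq2 and 378 below an unadjusted p of 0.05 in edgeR.

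At 1 h the other members changed by −0.15 (Rab26os) to 0.25 (9330159M07Rik) in WT and by −0.12 (Rab26os) to 0.15 (9330159M07Rik) in LiTEC cells, on the log2 scale. 1810032O08Rik, for example, was at 36.2, 31.3 and 32.4 CPM in lit and 42.7, 29.9 and 33.2 CPM in dark WT cells (−0.07 ± 0.14). 2410006H16Rik had its highest mean of the 12 groups in lit WT cells at 1 h, 61.5 ± 6.15 CPM (SD, n = 3), with libraries at 54.7, 66.8 and 62.8 CPM against 51.6, 55.7 and 58.1 CPM in the dark. Snord49a and Snord49b were level with dark cells in WT, changing by −0.14 ± 0.19 and 0.20 ± 0.22.

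At 4 h after light 0 members were called by edgeR or DESeq2, with 2 of 6 in WT and 0 of 6 in LiTEC cells below an unadjusted p of 0.05. Over all genes edgeR called 0 in WT (DESeq2 18) and 0.011 percent in LiTEC cells. Of the 18193 genes tested, 1484 in WT and 1155 in LiTEC cells lay below an unadjusted p of 0.05 in edgeR. In WT, 9330159M07Rik was at 6.86, 6.59 and 6.36 CPM in lit and 9.01, 9.10 and 8.47 CPM in dark cells. These groups did not overlap, but the change of −0.43 ± 0.15 did not pass the test (edgeR adjusted p = 0.459). Rab26os was at 6.44, 6.96 and 9.48 CPM in lit and 12.4, 7.86 and 12.2 CPM in dark WT cells, overlapping groups with a change of −0.49 ± 0.19 (edgeR adjusted p = 0.50). In LiTEC cells these changed by −0.11 ± 0.15 and −0.19 ± 0.19. There the lit libraries of Rab26os and of Lrrc75aos2 lay below all the dark ones. Neither change passed the test (edgeR adjusted p = 0.934 and 0.809), and the share of all genes separated in this way was not counted. Lrrc75aos2 changed by −0.21 ± 0.15 in WT and −0.28 ± 0.15 in LiTEC cells, with a difference between genotypes of −0.07 ± 0.21, and 1110038B12Rik and 1810032O08Rik by −0.07 to −0.23 in either genotype.

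In dark cells, Lrrc75aos2 was lower at 4 h than at 1 h. It was at 9.75, 8.87 and 11.4 CPM (WT) and 11.3, 12.7 and 14.5 CPM (LiTEC) at 1 h, and at 7.53, 7.64 and 11.1 CPM (WT) and 7.96, 8.25 and 7.56 CPM (LiTEC) at 4 h. The groups overlapped in WT through replicate 3 at 4 h, the library with the highest share of Gm26917, and did not overlap in LiTEC cells. It fell by 26.8% (log2 fold change −0.45 ± 0.10, edgeR adjusted p = 0.00127), and its log2 fold change was −0.54 without that library. It was the only member called in this comparison, beside 9.89 percent of genes called lower, and the change was −0.41 in batch 1 and −0.43 in batch 2. The other 5 members lay between −0.11 (1810032O08Rik) and 0.08 (Rab26os). Rab26, opposite Rab26os, rose over the same time by 0.82 ± 0.18 (edgeR adjusted p = 0.000974), from 1.59 to 2.60 CPM at 1 h to 3.14 to 4.10 CPM at 4 h. Rab26os did not pass (edgeR adjusted p = 0.711), and the difference between the strands was not tested.

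Between genotypes, 9330159M07Rik and 1110038B12Rik were called lower in dark LiTEC than in dark WT cells at 1 and 4 h, by 17.1% and 13.6%, and each call was lost in some fits with 1 library left out. The libraries of 9330159M07Rik were at 8.23, 7.95, 6.22, 8.08, 7.15 and 6.23 CPM in LiTEC and 9.45, 9.69, 7.18, 9.01, 9.10 and 8.47 CPM in WT cells, groups that overlap, with −0.27 ± 0.10 (edgeR adjusted p = 0.0358). Those of 1110038B12Rik were at 128, 112, 132, 130, 103 and 121 CPM in LiTEC and 144, 128, 148, 137, 116 and 167 CPM in WT cells, overlapping groups with −0.21 ± 0.08 (edgeR adjusted p = 0.0448). Lower calls were made for 2 of 6 members beside 19.8 percent of genes, in a comparison that called 39.5 percent of genes in either direction. Leaving out any 1 of the 12 dark libraries at these times lost at least 1 of the 2 calls. Both were lost without LiTEC replicate 1 at 1 h, WT replicate 1 at 1 h or WT replicate 3 at 4 h. Of the other libraries, 1110038B12Rik alone was lost without LiTEC replicate 2 or WT replicate 3 at 1 h, or LiTEC replicate 2 or WT replicate 1 at 4 h, and 9330159M07Rik alone without LiTEC replicate 3 or WT replicate 2 at 1 h, or LiTEC replicates 1 or 3 or WT replicate 2 at 4 h. Other members were called in some of these fits, Rab26os without WT replicate 2 at 1 h or at 4 h and 2410006H16Rik without WT replicate 3 at 4 h. In batch 2 alone 0 members were called.

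Rab26os differed by −0.29 ± 0.13 between genotypes (edgeR adjusted p = 0.0816). It was called in 4 of 21 alternatives, among them the fit with the replicate number as a block (−0.28, edgeR adjusted p = 0.033). 2410006H16Rik differed by −0.13 ± 0.06 (edgeR adjusted p = 0.0844), 1810032O08Rik by −0.08 ± 0.10 (0.575) and Lrrc75aos2 by 0.11 ± 0.10 (0.389). Lrrc75a, on the other strand, was at 3.74 to 5.23 CPM in these LiTEC libraries and 0.759 to 1.38 CPM in the WT ones, and was higher by 1.95 ± 0.17 (edgeR adjusted p = 7.09e-11). Of the 8 fibroblast markers, 4 of 5 tested were lower in LiTEC cells, Col1a2 by −3.58 and Col1a1 by −1.53 on the log2 scale. The 8 summed to 2.65 to 5.58 CPM in LiTEC and 4.86 to 10.5 CPM in WT libraries. Col1a2 was near the floor, with a mean of 0.362 CPM and 0 counts in 6 of the 36 libraries. Of 9 stem cell markers, 7 were lower, among them Tdgf1 (−0.57), and Zfp42 was higher (0.31). Over all genes 19.8 percent were lower. The part of these markers in the members' differences was not tested.

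Ordered by mean level over the 12 groups, Lrrc75aos2 was lowest in lit WT cells at 0 h (2.35 ± 0.549 CPM, SD, n = 3) and next in lit LiTEC cells at 4 h (6.53 ± 0.340 CPM), with ranges apart. Its 3 highest groups were all at 1 h, lit LiTEC (11.8 ± 0.0283 CPM), dark LiTEC (12.8 ± 1.62 CPM) and lit WT cells (13.8 ± 1.39 CPM), and the lowest of these lay apart from the next group down, dark WT at 0 h (10.1 ± 0.747 CPM). The other 9 of its 11 neighbouring pairs overlapped. Rab26os, 1810032O08Rik, 1110038B12Rik and 9330159M07Rik had the same 2 lowest groups, lit WT and lit LiTEC cells at 0 h, at 4.51 and 5.36, 15.7 and 20.8, 95.2 and 98.1, and 5.85 and 5.93 CPM. Of the neighbouring pairs of these 4 RNAs, 1 was apart, lit LiTEC cells at 0 h and 4 h for Rab26os. 2410006H16Rik was lowest in lit LiTEC cells at 0 h (42.8 ± 1.23 CPM), and all of its neighbouring pairs overlapped.

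The lists that follow were drawn up with the members, with results of these data known, so their counts at 0 h are a description too. Of 23 better-known noncoding snoRNA hosts, 21 were tested. In WT at 0 h, 10 were called lower and 1 higher, with a median log2 fold change of −0.53: Dancr by −1.69 ± 0.15, Snhg4 by −1.40 ± 0.10, Gas5 by −0.96 ± 0.07 and, higher, Meg3 by 0.40 ± 0.10. Among all genes tested, 1.2 percent were called lower there and 302 of 18193 higher. In LiTEC cells 7 were called lower, with a median of −0.25, beside 0.533 percent of all genes called lower. Lrrc75aos2 thus had a larger WT change than any of the 21, while the other members lay within their range. At 1 h and at 4 h, 0 of the 21 were called in either genotype by edgeR or DESeq2. Below an unadjusted edgeR p of 0.05 were 3 in WT and 1 in LiTEC cells at 1 h, and 6 and 4 at 4 h. Of the 18193 genes tested, 1286 and 1138 lay below it at 1 h, and 1484 and 1155 at 4 h. Between the genotypes in the dark, 8 of the 21 were lower (19.8 percent of all genes), among them Snhg11 (−0.66) and Epb41l4aos (−0.54), and Snhg14 was higher (0.36); from 1 to 4 h in the dark 4 were lower (9.89 percent of all genes), among them Snhg6 (−0.29) and Snhg5 (−0.23), and Snhg11 was higher (0.47).

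**Figure D4:**
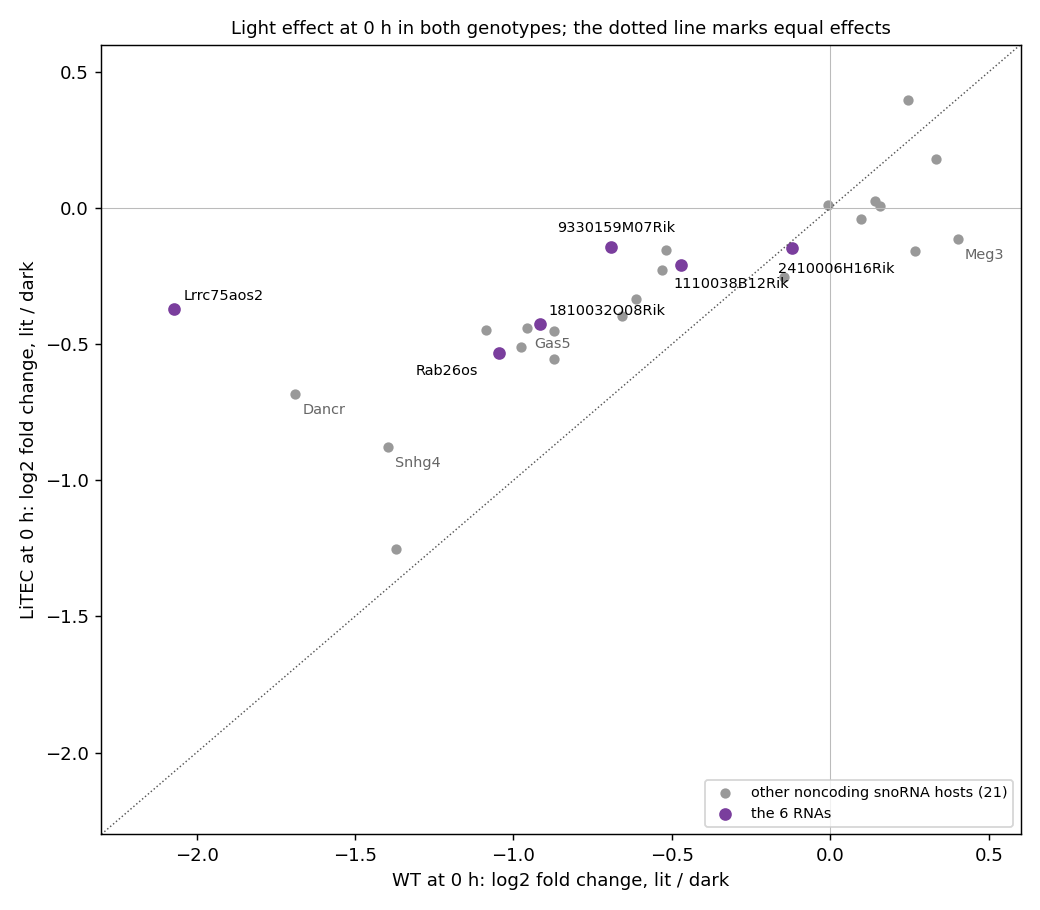
Light effect at 0 h in WT (horizontal axis) and LiTEC cells (vertical axis), both as log2 fold change of lit over dark cells, for the 6 RNAs (purple) and the 21 tested better-known noncoding hosts (grey); the dotted line marks equal effects. Lrrc75aos2, at −2.07 and −0.37, lies farthest to the left, 2410006H16Rik lies near 0 on both axes, and Dancr and Snhg4 are the other hosts named at the left.

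Genes of the steps around the hosts had small median changes with light. Of 8 core snoRNA-protein genes (Fbl, Nop56, Nop58, Dkc1 and others), 10 nonsense-mediated decay factors and 13 TOP mRNAs of the translation machinery, 0 were called in any light comparison within a genotype by edgeR, with list medians between −0.06 and 0.08. Below an unadjusted p of 0.05 there were at most 1, 2 and 5 genes of the lists in a comparison. The 5 were TOP mRNAs in LiTEC cells at 4 h, where 1155 of the 18193 genes tested lay below it. DESeq2 called 1 decay factor in WT at 0 h, 1 in LiTEC cells at 1 h and no other. In the dark, LiTEC cells had lower levels of 6 of the 8 snoRNA-protein genes, among them Gar1 (−0.37) and Fbl (−0.27), and of 6 of the 10 decay factors, among them Smg9 (−0.51), with Upf3a (0.47) and Smg1 (0.09) higher. Of the TOP mRNAs, 5 of 13 were lower, among them Npm1 (−0.16), and Tpt1 was higher (0.19). Over all genes 19.8 percent were lower in this comparison and 39.5 percent were called in either direction. Counted in either direction, 6 of the 13 TOP mRNAs were called, near the share of all genes. The share of TOP mRNAs called lower was above that of all genes. From 1 to 4 h in the dark, 3 snoRNA-protein genes were lower (Nop58 by −0.19), 3 decay factors higher (Upf3b by 0.18) and 2 TOP mRNAs lower (Npm1 by −0.11), beside 9.89 percent of all genes lower and 10.2 percent higher.

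Across the 36 libraries, with the mean of each batch removed, the 3 most similar genes of each member were named. Of these 18 entries, 9 were hosts of the list above, with Snhg1 and Zfas1 entered for 2 members each. They are given as a description, since the libraries share light, time and genotype groups. The members and the host list were also drawn up with values of the 0 h libraries known, and these are among the 36. The count of hosts therefore supports nothing. Of 10522 genes compared, Pearson's r with 1810032O08Rik was highest for Zfas1 (0.93), Snhg1 (0.92) and Dancr (0.89), and with 1110038B12Rik for Snhg3 (0.91), Snhg12 (0.90) and Rcc1 (0.86). Rab26os was most like Snhg8 (0.89), Zfas1 (0.86) and Snhg5 (0.84), and Lrrc75aos2 most like Gm28229 (0.86), Snhg1 (0.86) and Gm28285 (0.85). The other 2 members had lower maxima and no host of the list among them: Ergic2 (0.81), Ube2v2 (0.76) and Gnl3 (0.72) for 2410006H16Rik, and Mir17hg (0.73), Zrsr2 (0.71) and Ssbp1 (0.71) for 9330159M07Rik. Among the members themselves r ran from 0.37, between the neighbours Lrrc75aos2 and 2410006H16Rik, to 0.83, between 1810032O08Rik and both Rab26os and 1110038B12Rik.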

How the data were processed

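Raw counts per gene were deposited by the authors as 1 table of 36 libraries, made with featureCounts on mm10/GRCm38 per the submitters' processing notes; aligner, strand setting and versions: not given in the sources used here. RNA was extracted with TRIzol and libraries made with a stranded mRNA kit, per the labels' protocols. The labels do not say that replicates were separate cultures, and p-values then reflect library-to-library spread that may be technical; same-group pairs differed by more than counting noise (chi-square per degree of freedom of at least 4.07). Counts were fitted in edgeR 4.0.16 (R 4.3.3; filterByExpr with a minimum count of 10, TMM, quasi-likelihood test) with 12 group means and batch (replicate 1 is batch 1, replicates 2 and 3 batch 2), leaving 23 residual degrees of freedom, with Benjamini-Hochberg adjustment over 18193 genes. The fit was tested on simulated data. CPM use TMM library sizes; the zero counts stated need no depth limit. Replicate numbers paired lit and dark libraries (18 of 18 pairs correlated above 0.1, from 0.34 to 0.77). The reported fit held batch and not this pairing, and the replicate number as a block was an alternative. Members and lists were chosen with earlier results of these data known. Named genes are the members, overlapping genes, the 3 most correlated genes above a mean of 5 CPM each, and up to 4 called genes per list and comparison. Alternatives covered covariates, batch, scaling, DESeq2 1.42.0, filters, samples and leaving out each library.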

Additional observations from a re-analysis of the deposited data

Results flagged for a closer look

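The light effect on Lrrc75aos2 at 0 h differed between the genotypes by 1.70 (log2, LiTEC minus WT; SE 0.23). It was lower after light in 3 of 3 lit libraries against all dark ones in each genotype, by −2.07 in WT and −0.37 in LiTEC cells. It is listed because this interaction term was called over all genes. The member was chosen with the comparison known, so the value and the call are a description and support nothing. Batch 1 gave 1.28 and batch 2 gave 1.71 on log2(CPM + 0.5). The difference was −0.58 at 1 h and −0.07 at 4 h, where it did not pass the test.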

How the results depend on the processing

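The log2 fold change of Lrrc75aos2 for 4 h against 1 h in the dark kept its direction and side of the threshold in all 21 alternatives (−0.54 to −0.39). In WT at 0 h it ranged from −2.17 to −1.91 over 15, a description, since members were chosen with this value known. The number of members called in WT at 0 h, 5, became 1 in batch 2 alone and 3 with only the compared groups in the fit, ranging from 3 to 5 when each library was left out. In LiTEC cells at 0 h it became 1 without an expression filter (1810032O08Rik), and for the difference at 0 h it became 0 in batch 2 alone. Between genotypes in the dark it became 0 without a batch term, in batch 2 alone and with only the compared groups, and 1 with a mean of at least 5 CPM and 1 after removing the ribosomal RNA loci (Gm26917, Gm42418), with 0 to 2 when each library was left out, though not always the same members; batch 2 alone and the fits of compared groups hold fewer samples, and for the rest the cause was not tested. The replicate block called Rab26os there (3 members in place of 2) and changed no other member's call; it raised the genes called in WT at 0 h from 520 to 870. Values near 0 changed sign: in batch 2 alone 1810032O08Rik in WT at 1 h (0.0057) and the difference of Lrrc75aos2 at 4 h (0.00999). With each library left out, the sign-changing ranges were −0.118 to 0.0451 for 2410006H16Rik in the difference at 0 h, −0.0673 to 0.122 for 2410006H16Rik and −0.221 to 0.053 for 1110038B12Rik in WT at 4 h, −0.271 to 0.0299 for the difference of Lrrc75aos2 at 4 h, −0.17 to 0.0444 for 1810032O08Rik between genotypes, and −0.0647 to 0.0445 for 9330159M07Rik and −0.111 to 0.0249 for 1110038B12Rik from 1 to 4 h in the dark. Another scaling (RLE) moved the median of all genes by less than 0.01 in each comparison. Over all genes, the number called ranged over the alternatives other than left-out libraries from 141 to 870 (520 in the reported fit) in WT at 0 h, 5 to 290 (170) in LiTEC cells at 0 h, 11 to 111 (52) and 7 to 60 (21) at 1 h, 0 to 113 (0) and 0 to 36 (2) at 4 h, 0 to 31 (4) for the difference at 0 h, and 2086 to 4607 (3658) from 1 to 4 h in the dark. Depth limits Snord65 and Lrrc75a, with as few as 3 and 15 counts in a library.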

Other observations

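1110038B12Rik lies 3964 bases from Hspa1b, a heat-inducible Hsp70 chaperone gene on the same strand, which was named after its values were seen. The neighbours moved in opposite directions in WT at 0 h: Hspa1b was at 114 CPM (mean, n = 3) in lit and 7.74 CPM in dark WT cells, a log2 fold change of 3.85 ± 0.39, beside −0.47 ± 0.12 for 1110038B12Rik. At 1 h Hspa1b was still higher by 3.46 ± 0.40 in WT and 2.46 ± 0.41 in LiTEC cells (both called by edgeR), beside −0.10 ± 0.12 and −0.07 ± 0.12 for 1110038B12Rik. Hspa1b and Hspa1a are near-identical copies, so the split of reads between them is uncertain.

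In the dark WT library at 4 h numbered 3, Snord49a was at 18.5 CPM, against 8.39 and 9.44 CPM in the other libraries of its group, while 2410006H16Rik, whose intron holds it, was at 47.9 CPM, against 51.0 and 59.2 CPM. Lrrc75aos2 (11.1 CPM), 1110038B12Rik (167 CPM), 1810032O08Rik (40.6 CPM), Snord49b (6.08 CPM) and Snord65 (2.10 CPM) were also at the top of their group there, Rab26os (12.2 CPM) was in the middle and 9330159M07Rik (8.47 CPM) at the bottom. This was the library with 26.1% of its counts on Gm26917, and whether that share bears on these values was not tested.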
